A study of Sus scrofa with 19 samples.

Results

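Matricellular proteins are secreted into the extracellular matrix, where they bind cells and growth factors rather than serve as the main building material, and lysyl oxidases crosslink the collagen and elastin that do. In the heart both are made largely by fibroblasts, and both are known for their part in scar formation and stiffening. POSTN (periostin), SPARC, TNC (tenascin C), CCN2 (connective tissue growth factor), THBS1 and THBS4 (thrombospondins) are matricellular, FN1 (fibronectin) is an adhesive matrix protein, and LOX, LOXL1 and LOXL2 are copper-dependent amine oxidases that start the crosslinks. These 10 genes were listed by symbol, all were found among the 25879 genes of the count files, and all 10 were among the 13552 genes kept for the test. The symbols were those that the authors' own expression table pairs with Ensembl identifiers.

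Bulk RNA-seq of left ventricular (LV) myocardium from 19 pigs was analysed, 1 library per pig. In DOX (n = 5) and MYO (n = 5) the pigs received doxorubicin or Myocet, a liposomal doxorubicin, at 60 mg/m2 in 3 cycles, with 3 months of follow-up. In RemoLV (n = 3) the coronary artery was occluded for 90 min and reperfused, and the remote posterior wall was taken at 6 months. In Hyper (n = 3) the aortic isthmus was narrowed with a stent to overload the LV, and in Control (n = 3) no model was induced, both with 6 months of follow-up. The labels call the controls sham-operated and the study's methods call them untreated, and no age in numbers is used here. The methods give the controls as age-matched and the Hyper pigs as juvenile when the stent was placed. The labels describe all of the animals as female Large White pigs, and the tissue as anterior wall in DOX, MYO, Hyper and Control and posterior wall in RemoLV.

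The names of the libraries were in conflict. Each sample column of the authors' expression table had a rank correlation of 1 with exactly 1 count file, and 8 of the 19 columns carried another group name than that file. The 3 files labelled Control were RemoLV in the table, the 3 files labelled RemoLV were Control, and DOX replicate 5 and MYO replicate 1 were exchanged. File labels define the groups here, and comparisons that depend on the names are given with the table names as well. The 10 DOX and MYO libraries together, and the 3 Hyper libraries, were the same libraries under both namings. Ventricular light chain MYL2 was at 58.0 ± 50.8 CPM (counts relative to the TMM-scaled library total, SD, n = 3) in the libraries labelled RemoLV, against 15850 ± 2250 in Control, and atrial light chain MYL4 at 7169 ± 1062 against 1.90 ± 1.26. The libraries labelled RemoLV thus went against their LV label. The Y-linked gene DDX3Y was at 96.1 to 177 CPM in all 10 libraries of drug-treated pigs and at no more than 0.137 CPM in the other 9, against the label female. Drug, time of follow-up, sex and the earlier study from which the DOX and MYO samples came cannot be told apart in any comparison of these 10 libraries with the rest.

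Library totals ranged from 9527710 to 20370209 counts, so that even TNC, the gene with the fewest reads per kilobase, was counted 24 to 300 times per library. Per kilobase of exon (union of RefSeq exons, Sscrofa11.1), the mean level over the 10 DOX and MYO libraries was highest for SPARC at 502 CPM per kilobase. It was followed by CCN2 at 138, THBS1 at 58.2, THBS4 at 39.4 and POSTN at 22.4 CPM per kilobase. FN1 at 15.8, LOXL2 at 14.9, LOX at 9.93, LOXL1 at 8.82 and TNC at 1.04 CPM per kilobase were lower. Without DOX replicate 1, which was high for both, the mean level of CCN2 was 89.9 and that of THBS1 23.3 CPM per kilobase, below THBS4 at 38.7. In the libraries labelled RemoLV the mean level of LOX, 44.2 CPM per kilobase, stood above that of LOXL2, 7.71, and of LOXL1, 6.54.

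**Figure D1:**
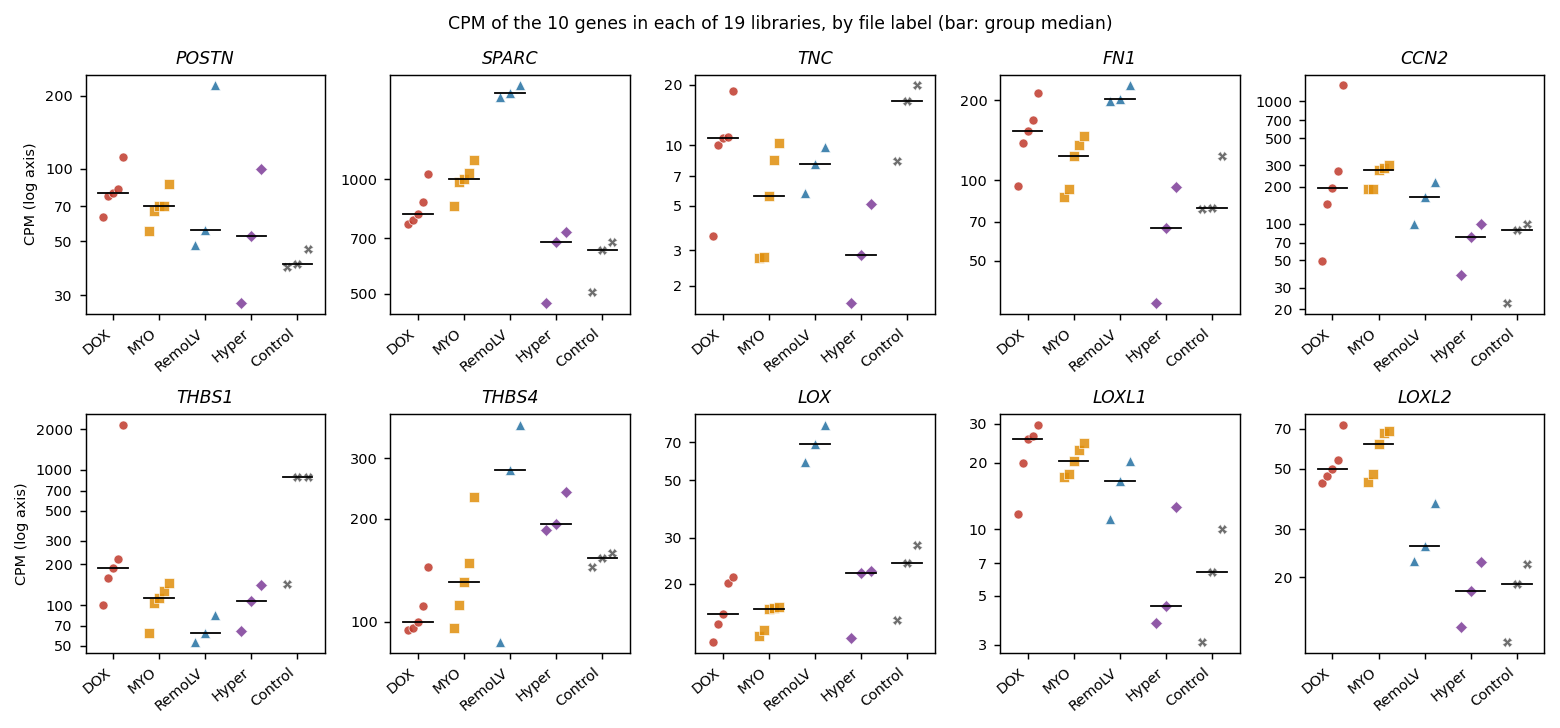
CPM (log axis) of each gene in each of the 19 libraries, by file label, with a bar at the group median. The 10 DOX and MYO libraries lie above the other 9 for LOXL2, the 3 libraries labelled RemoLV lie above the other 16 for SPARC and LOX, and DOX replicate 1 stands apart for CCN2 and THBS1.

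DOX and MYO together were set against Hyper to ask how the hearts of anthracycline-treated pigs differed from pressure-overloaded hearts, the only contrast between kinds of model whose libraries are the same in both namings. In this comparison 6 of the 10 genes were higher in DOX and MYO at an adjusted p of at most 0.05, namely SPARC, TNC, FN1, CCN2, LOXL1 and LOXL2. None was lower. Over all genes tested, 15.8% were called higher and 16.9% lower, or 2136 and 2286 genes, which became 1103 and 1427 without Hyper replicate 1. The median log2 fold change of the 10 genes was 1.15, against 0.03 over all genes. The same 6 genes passed with the table names. With plain library totals in place of scaling factors, the median of all genes moved to 0.29 and 3894 genes were called higher and 760 lower, and the same 6 genes passed.

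LOXL2, a lysyl oxidase that also acts on basement membrane collagen, lies on chromosome 14 (chr14:7435861-7540699, minus strand, Sscrofa11.1). The level of LOXL2 was 72.6, 49.95, 53.9, 47.2 and 44.5 CPM in the 5 DOX libraries and 44.8, 68.6, 47.9, 67.6 and 61.5 CPM in the 5 MYO libraries. In Hyper the LOXL2 level was 13.1, 17.8 and 22.9 CPM, in Control 22.5, 11.6 and 18.8 CPM, and in the libraries labelled RemoLV 37.4, 26.2 and 22.9 CPM. Every DOX and MYO library was therefore above every other library, whichever naming was used, which held for 1.84% of all genes tested. The log2 fold change of LOXL2 against Hyper was 1.64 (SE 0.23, adjusted p = 4.33e-05). By their means the groups ran in the order MYO, DOX, RemoLV, Hyper, Control, with the ranges of MYO and DOX overlapping and those of Hyper and Control overlapping.

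LOXL1, which acts mainly on elastin (chr7:59481410-59505161, minus strand), ranged from 11.7 to 29.7 CPM in DOX with a median of 25.5, and from 17.3 to 24.7 CPM in MYO with a median of 20.4. The LOXL1 level was 3.78, 4.52 and 12.7 CPM in Hyper and 10, 3.09 and 6.42 CPM in Control. Only DOX replicate 5 at 11.7 CPM fell below the highest Hyper library. LOXL1 was higher by 1.62 on the log2 scale than in Hyper (SE 0.37, adjusted p = 0.00307).

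LOX, the founding enzyme of the family (chr2:125595115-125607026, minus strand), did not share this pattern. Its level was between 11.9 and 21.3 CPM in DOX and between 12.6 and 16.3 CPM in MYO, against 22.5, 12.4 and 22.1 CPM in Hyper. These ranges overlapped, and the log2 fold change of LOX was -0.28 (SE 0.20, adjusted p = 0.313). In the libraries labelled RemoLV, LOX was at 58.8, 69.0 and 81.7 CPM, above all other 16 libraries, of which the highest was at 28.2 CPM.

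The ratio of LOXL2 to LOX counts within a library does not depend on how libraries are scaled, and it was examined after the values had been seen. The log2 ratio was 1.83 ± 0.34 (SD, n = 10) in DOX and MYO, -0.07 ± 0.66 (n = 3) in Hyper, -0.34 ± 0.85 (n = 3) in Control and -1.29 ± 0.60 (n = 3) in the libraries labelled RemoLV. The lowest DOX or MYO library was at 1.24 and the highest other library at 0.52. The libraries thus did not overlap between DOX and MYO and the other groups, and since the measure was picked for this separation, no test is given. DOX and MYO differed from each other by -0.24 in the log2 ratio.

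**Figure D2:**
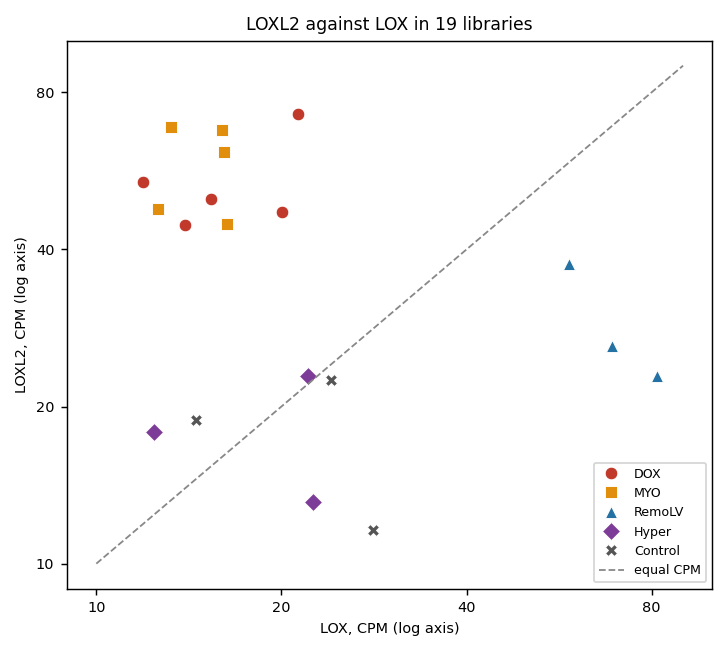
LOXL2 against LOX, both in CPM on log axes, in 19 libraries, with a dashed line at equal CPM. The DOX and MYO libraries lie above the line with LOXL2 at 44.5 CPM or more, whereas the libraries labelled RemoLV lie below it with LOX at 58.8 CPM or more.

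SPARC, a collagen-binding protein that takes part in the handling of procollagen (chr16:71368164-71380972, plus strand), was the most abundant of the genes. The SPARC level ranged from 766 to 1036 CPM in DOX (median 811) and from 853 to 1125 CPM in MYO (median 1002). It was 684, 474 and 728 CPM in Hyper, so that the 10 treated libraries lay above the 3 Hyper libraries. Such a separation, every DOX and MYO library above every Hyper library, was found for SPARC and LOXL2 and for 9.98% of all genes. The log2 fold change of SPARC was 0.56 (SE 0.13, adjusted p = 0.00397).

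FN1 (chr15:117658158-117737145, minus strand) was between 95.6 and 213 CPM in DOX and between 86.8 and 146 CPM in MYO, against 94.4, 34.8 and 66.2 CPM in Hyper. Hyper replicate 1 alone reached the range of the treated libraries. The log2 fold change of FN1 was 1.04 (SE 0.26, adjusted p = 0.00592). TNC, an anti-adhesive protein usually low in the adult heart (chr1:255533235-255630381, minus strand), was between 3.53 and 18.7 CPM in DOX, between 2.75 and 10.2 CPM in MYO and at 1.65, 2.86 and 5.10 CPM in Hyper. The TNC ranges overlapped, and the log2 fold change was 1.33 (SE 0.48, adjusted p = 0.0429). The call of TNC was lost without any of 9 of the libraries compared, Hyper replicates 1 and 2 among them, with adjusted p up to 0.219.

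POSTN, which supports collagen fibril assembly (chr11:13225183-13258973, minus strand), was not called. The POSTN level ranged from 63.4 to 111 CPM in DOX and from 55.3 to 86.1 CPM in MYO, against 99.8, 27.9 and 52.8 CPM in Hyper. The difference from Hyper was 0.33 on the log2 scale (SE 0.37, adjusted p = 0.512). Only DOX replicate 1 was above the highest Hyper library. THBS4, a thrombospondin of striated muscle and tendon (chr2:88729531-88780759, plus strand), had the only fold change near the threshold in the other direction. It was between 94.8 and 144 CPM in DOX and between 95.9 and 231 CPM in MYO, against 193, 185 and 240 CPM in Hyper, with MYO replicate 2 the only treated library in the Hyper range. The log2 fold change of THBS4 was -0.72 (SE 0.28, adjusted p = 0.0553), and it passed without the libraries labelled RemoLV in the model (adjusted p = 0.00979), in which the call of TNC was lost (adjusted p = 0.0557).

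CCN2, a secreted modulator of TGF-beta signalling whose transcription responds to YAP and TEAD, and THBS1, which can activate latent TGF-beta, were both far highest in DOX replicate 1. CCN2 (chr1:31674398-31677697, plus strand, CTGF in RefSeq) was at 1348, 268, 195, 145 and 49.5 CPM in the DOX libraries and between 192 and 299.5 CPM in MYO. It was at 38.4, 99.8 and 77.8 CPM in Hyper. DOX replicate 1 was high, DOX replicate 5 was within the Hyper range, and the remaining 8 treated libraries were above it. The log2 fold change of CCN2 against Hyper was 2.13 (SE 0.73, adjusted p = 0.0322), and without DOX replicate 1 it was 1.47 (SE 0.46, adjusted p = 0.0219). The call was lost without Hyper replicate 1 (1.83, adjusted p = 0.155), replicate 2 (adjusted p = 0.0617) or replicate 3 (adjusted p = 0.0752). CCN2 was the only one of the genes that also passed an absolute log2 fold change of 2, as 0.863% of all genes did in this direction (117 genes, 193 without Hyper replicate 3, and 213 with plain library totals).

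THBS1 (chr1:131728781-131746098, minus strand) was at 2162, 217, 187, 159 and 101 CPM in DOX, between 62.6 and 146 CPM in MYO, and at 141, 64.1 and 108 CPM in Hyper. Control replicates 1 and 3 were at 879 and 892 CPM, and Control replicate 2 at 144 CPM. Apart from DOX replicate 1 and these Control libraries, every library was between 53.2 and 217 CPM. THBS1 differed from Hyper by 1.26 on the log2 scale (SE 0.76, adjusted p = 0.217), and by 0.36 without DOX replicate 1.

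In the same library, DOX replicate 1, the summed level of 14 immediate-early genes was 6802 CPM, against 294 to 986 CPM in the other 18 libraries. ATF3 alone was at 2212 CPM there and FOS at 597 CPM. Control replicates 1 and 3 had immediate-early sums of 926 and 798 CPM, within the range of other libraries, but their summed red cell markers, 355 and 342 CPM, were above the 8.57 to 199 CPM of the other 17 libraries. All 14 immediate-early genes and 5 of 8 red cell markers could be matched, and SLC4A1 was at 0 counts in every DOX and every RemoLV library. The part of these genes in the levels of CCN2 and THBS1 was not tested.

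**Figure D3:**
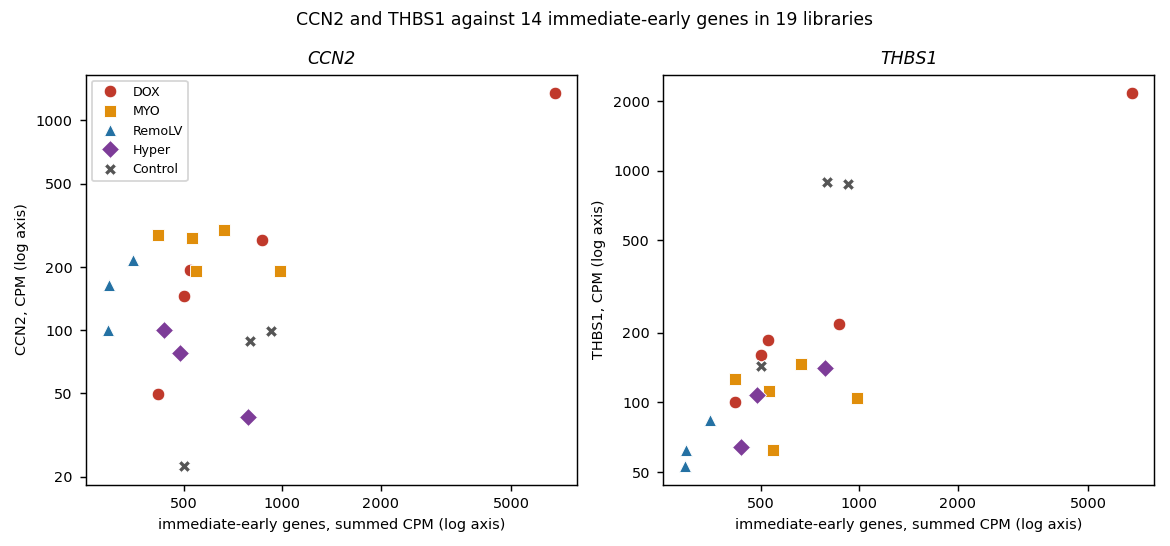
CCN2 (left) and THBS1 (right), in CPM, against the summed CPM of 14 immediate-early genes in 19 libraries, all on log axes. DOX replicate 1 stands at the upper right in both panels, and Control replicates 1 and 3 are high for THBS1 at immediate-early sums of 926 and 798 CPM.

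The promoters of these genes are shown because CCN2 and THBS1 were the genes with the largest excursions in single libraries, and CCN2 is a known target of TEAD factors. Sequences run from 250 bases before to 50 bases after the RefSeq gene start on the coding strand, read from the Sscrofa11.1 genome, with matches to the letters GGAATG, a core of the TEAD motif, and to the TATA box in capitals, on either strand. CCN2 is at chr1:31674148-31674447, plus strand, and THBS1 at chr1:131746049-131746348, minus strand.
CCN2: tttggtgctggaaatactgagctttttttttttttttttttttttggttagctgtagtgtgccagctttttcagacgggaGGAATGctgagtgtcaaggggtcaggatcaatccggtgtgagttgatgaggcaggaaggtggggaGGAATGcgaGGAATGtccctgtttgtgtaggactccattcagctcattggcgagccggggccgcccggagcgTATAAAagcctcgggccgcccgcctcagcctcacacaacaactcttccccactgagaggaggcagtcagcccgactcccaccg
THBS1: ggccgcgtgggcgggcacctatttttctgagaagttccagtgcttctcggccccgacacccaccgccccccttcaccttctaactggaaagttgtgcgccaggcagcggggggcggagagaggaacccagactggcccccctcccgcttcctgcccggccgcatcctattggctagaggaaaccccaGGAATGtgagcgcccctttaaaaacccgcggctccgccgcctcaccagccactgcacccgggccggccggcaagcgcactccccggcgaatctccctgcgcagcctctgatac
The letters GGAATG occurred 3 times before the start of CCN2, beginning at positions -170, -105 and -96, and once before THBS1 at -63. A TATAAA stood at -33 of CCN2. Among the 10 genes, GGAATG or its reverse complement was found in 3 (CCN2, THBS1 and LOXL1), whereas 11.8% of 19556 promoters of the same length held it. TATAAA was found in 1 of the 10 genes and 10.9% of promoters, and TGANTCA (AP-1) in 1, POSTN (as TGAATCA), and 6.07% of promoters. CAGACA (SMAD) was found in none of the 10 windows and in 15.1% of promoters. The windows follow the starts of the RefSeq gene models, and whether transcription begins there was not checked for any gene. The motif letters did not overlap one another in these windows, and they describe the sequence only.

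Against Control, the sign of the fold change turned with the naming for 5 of the 10 genes in DOX and for 4 in MYO. With the file labels, 5 of the 10 genes were higher in DOX, where 21.0% of all genes were called higher and 21.1% lower (2842 and 2862 genes, and 1800 and 1987 without Control replicate 3). These were LOXL2 at 1.61 on the log2 scale (SE 0.25, adjusted p = 8.04e-05), LOXL1 at 1.81 (SE 0.40, adjusted p = 0.00175), SPARC at 0.47 (adjusted p = 0.0144), CCN2 at 2.52 (adjusted p = 0.016) and FN1 at 0.72 (adjusted p = 0.0457). CCN2 also passed the fold threshold, as 1.59% of all genes did upwards (215 genes, 363 without Control replicate 2, and 459 with plain library totals). Without DOX replicate 1, CCN2 was at 1.22 (adjusted p = 0.0597), FN1 at 0.56 (adjusted p = 0.106) and THBS1 at -1.96 (adjusted p = 0.00225) in place of -0.17 (adjusted p = 0.877). Without Control replicate 2 the calls of CCN2 (adjusted p = 0.0583) and FN1 (adjusted p = 0.134) were lost, and without Control replicate 3 those of SPARC (adjusted p = 0.105) and FN1 (adjusted p = 0.173). FN1 also lost its call with DESeq2's size factors (adjusted p = 0.0517), and FN1 (adjusted p = 0.0517) and CCN2 (adjusted p = 0.0816) with only the groups compared in the model.

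In MYO, 3 of the 10 genes were higher than in Control with the file labels and 3 were lower, against 20.7% and 21.7% of all genes (2804 and 2944 genes, and 1826 and 2056 without Control replicate 3). LOXL2 was higher by 1.72 (adjusted p = 4.6e-05), LOXL1 by 1.67 (adjusted p = 0.00294) and SPARC by 0.70 (adjusted p = 0.00101) on the log2 scale. TNC at -1.32 (adjusted p = 0.0287), THBS1 at -2.53 (adjusted p = 0.0133) and LOX at -0.59 (adjusted p = 0.0451) were lower. THBS1 passed the fold threshold downwards, with 1.24% of all genes. DOX and MYO share the Control libraries. The call of LOX was lost without any of 7 of the libraries compared (MYO replicates 1 to 5 and Control replicates 1 and 2), that of TNC without any of 5 (MYO replicates 3 to 5 and Control replicates 1 and 3) and that of THBS1 without Control replicate 1 or 3, with adjusted p up to 0.226, 0.125 and 0.0601. With the replicate block the calls of TNC, THBS1 and LOX were all lost.

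With the table names, the libraries labelled RemoLV served as controls, and LOXL2 was the only one of these genes higher in both drug groups. It was higher by 0.90 (SE 0.24, adjusted p = 0.00809) in DOX and by 1.01 (SE 0.24, adjusted p = 0.00374) in MYO. THBS1 was also higher in DOX at 3.07 (adjusted p = 0.0181). LOX was lower in DOX and MYO, at -2.04 and -2.28 on the log2 scale, and so was SPARC, at -0.91 and -0.85. THBS4 was lower in DOX at -1.09 (adjusted p = 0.0179), and FN1 in MYO at -0.91 (adjusted p = 0.0113). Over all genes, 15.0% were higher and 14.6% lower in DOX, and 14.8% and 14.4% in MYO. LOXL2 was thus called higher in DOX and in MYO against Control under both namings, SPARC was called in opposite directions, and LOXL1 passed only with the file labels, its table-name values being 0.57 and 0.27.

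**Figure D4:**
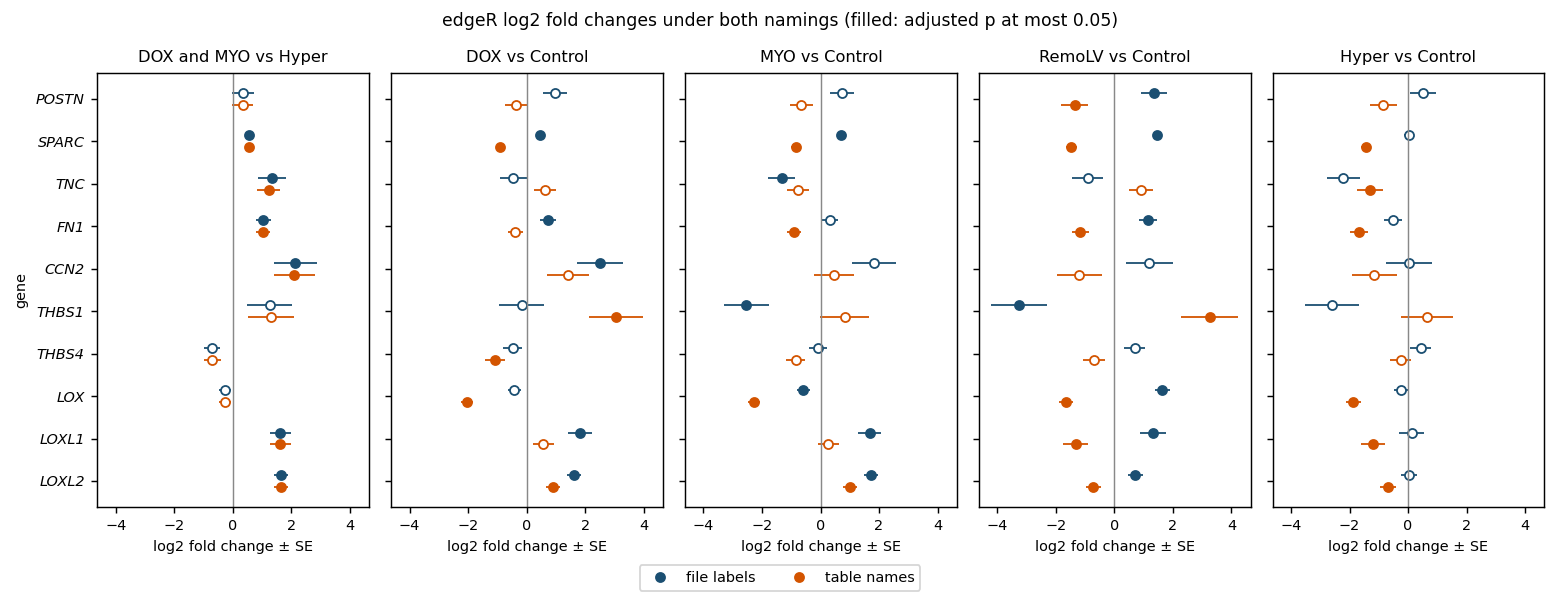
Log2 fold changes with SE from edgeR for the 10 genes in 5 comparisons, with file labels in blue and table names in orange, filled where the adjusted p is at most 0.05. The namings give nearly the same values for DOX and MYO vs Hyper and opposite signs for RemoLV vs Control.

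The libraries labelled RemoLV, taken after infarction by that label, had 6 of the 10 genes higher than the libraries labelled Control and 1 lower, where 23.1% of all genes were called higher and 24.0% lower. SPARC was at 1766, 1686 and 1651 CPM in the libraries labelled RemoLV, against 687, 654 and 507 CPM in Control. It was above all other 16 libraries, as was LOX, a separation found for 8.18% of all genes. The log2 fold changes were 1.47 (SE 0.16, adjusted p = 1.97e-06) for SPARC and 1.65 (SE 0.26, adjusted p = 6.21e-05) for LOX. FN1, at 227, 202 and 199 CPM against 123, 79.0 and 77.9 CPM, differed by 1.16 (SE 0.31, adjusted p = 0.00479).

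LOXL1 at 1.32 (adjusted p = 0.0175), POSTN at 1.36 (adjusted p = 0.0205) and LOXL2 at 0.72 (adjusted p = 0.0317) were also higher. POSTN was at 55.9, 48.4 and 220 CPM, so that the difference rested on RemoLV replicate 3, without which it was 0.31 (adjusted p = 0.492). Without that replicate THBS4, at 376 and 276 CPM in the other 2 libraries and at 87.3 CPM in replicate 3, passed at 1.10 (adjusted p = 0.00427). Without Control replicate 1 or 3 the call of POSTN was lost too (adjusted p up to 0.0637). Without Control replicate 2 or 3, LOXL1 and LOXL2 lost their calls, as did LOXL1 without RemoLV replicate 2 and LOXL2 without RemoLV replicate 1, with adjusted p up to 0.0712 and 0.175. THBS1, at 53.2, 84.2 and 62.2 CPM, was lower, at -3.26 (SE 0.95, adjusted p = 0.00904) and passed the fold threshold, with 2.22% of all genes downwards. The summed immediate-early genes were at 294, 350 and 296 CPM in the libraries labelled RemoLV, below every other library (417 CPM or more). Of 14 tested, 2 were lower than in Control, JUNB at -2.80 and KLF4 at -1.73, and 0 were higher. Their part in the level of THBS1 was not tested.

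With the table names the same values carry the opposite sign, so that 1 of the 10 genes, THBS1, was higher in RemoLV and 6 were lower. Of all genes, 24.0% were then called higher and 23.2% lower. The 10 atrial cardiomyocyte markers, 9 of them matched, summed to 10200 to 13670 CPM in the libraries labelled RemoLV against 116 to 2472 CPM elsewhere, and BMP10 was at 0 counts in every DOX, Hyper and Control library. The 10 fibroblast markers, all matched, summed to 1723 to 1878 CPM in the libraries labelled RemoLV against 691 to 1140 CPM elsewhere. The summed tendon and fibrous tissue markers (117 to 123 against 28.8 to 94.1 CPM) and Schwann cell markers (253 to 285 against 138 to 221 CPM) were also above the other 16 libraries. The Schwann cell sum was mostly NCAM1, at 240.9 ± 15.5 against 140.5 ± 18.8 CPM in the libraries labelled Control (SD, n = 3). By the file labels, 2 of 7 Schwann cell markers tested were called higher than in Control and 0 lower. Below the other 16 libraries were the summed ventricular cardiomyocyte (26920 to 31310 against 49250 to 81690 CPM), skeletal muscle (1714 to 3203 against 4016 to 10630 CPM), endothelial (778 to 852 against 862 to 1180 CPM) and endocardial and epicardial markers (39.9 to 63.1 against 68.7 to 140 CPM). The skeletal muscle sum, with 6 of 10 markers matched and 2 tested, was mostly CKM, at 2535 ± 756 against 8382 ± 1230 CPM in the libraries labelled Control (SD, n = 3). Of the endocardial and epicardial list, 6 of 10 markers were matched and went both ways. By the file labels TBX18 was higher than in Control at 1.30, and WT1 at -2.97 and NPR3 at -1.71 were lower. The part of these cell types and of the chamber in the levels of SPARC, LOX and FN1 was not tested, and in bulk tissue fewer cells of a type and less RNA per cell cannot be told apart.

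Hyper differed from Control in none of the 10 genes with the file labels by edgeR, and 0% of all genes were called in either direction, although 2418 genes had an unadjusted p under 0.05. These counts rested on single libraries, with 1285 genes higher and 1253 lower without Control replicate 2, TNC and THBS1 among the lower, and 330 and 443 without Hyper replicate 1. DESeq2 called 105 genes higher and 207 lower, TNC among them at -2.24 (adjusted p = 0.00693). TNC was at 19.9, 8.37 and 16.6 CPM in Control, above all 3 Hyper libraries, and its edgeR log2 fold change was -2.21 (SE 0.56, adjusted p = 0.117). THBS1 was separated in the same direction at -2.61 (SE 0.92, adjusted p = 0.176), and such a separation held for 4.10% of all genes. THBS4, at 144, 159 and 154 CPM in Control, was lower there than in every Hyper library, as were 5.64% of all genes, with a log2 fold change of 0.44 (SE 0.36, adjusted p = 0.531).

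With the table names, the comparison of Hyper with Control had 6 of the 10 genes lower and none higher, among 17.2% and 18.7% of all genes. SPARC at -1.44 (adjusted p = 6.87e-06), LOX at -1.88 (adjusted p = 1.88e-05) and FN1 at -1.68 (adjusted p = 0.000256) led, followed by TNC at -1.30, LOXL1 at -1.20 and LOXL2 at -0.69. With the file labels these libraries form the comparison of RemoLV with Hyper. There 5 of the 10 genes were higher in RemoLV and none lower, against 17.0% and 18.6% of all genes, namely SPARC, FN1, LOX, LOXL1 at 1.20 (adjusted p = 0.0355) and LOXL2 at 0.69 (adjusted p = 0.0486). Both LOXL1 and LOXL2 lost this call without RemoLV replicate 1 or 2 or Hyper replicate 1 or 2 (adjusted p up to 0.152 and 0.238) and with the replicate block (0.0519 and 0.0903).

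Free and liposomal doxorubicin were compared to see whether the formulation changed these genes. None of the 10 genes was called between DOX and MYO, nor was any other gene by edgeR (0% in either direction), while 960 genes had an unadjusted p under 0.05 and DESeq2 called 2. With the file labels THBS1 alone of the 10 genes had an unadjusted p under 0.05, with a log2 fold change of 2.36 (SE 0.71, adjusted p = 0.692), and it was at 0.59 without DOX replicate 1. With the table names edgeR again called 0 genes, 1095 had an unadjusted p under 0.05, and these included TNC at 1.39 (SE 0.34, adjusted p = 0.286), FN1 at 0.52 (SE 0.22, adjusted p = 0.586) and THBS1 at 2.24 (SE 0.72, adjusted p = 0.481). With the file labels LOXL2 differed by -0.11 (SE 0.20), LOXL1 by 0.14 (SE 0.32) and LOX by 0.16 (SE 0.20) on the log2 scale.

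Related genes were listed to place the 10 genes in the matrix programme, and their counts stand beside 15.8% higher and 16.9% lower of all genes in this contrast. Of the fibrillar collagens, 9 of 11 were tested and 7 were higher in DOX and MYO than in Hyper, none lower, with a median log2 fold change of 1.04. COL1A1, the main chain of type I collagen, was higher by 1.23 (SE 0.28, adjusted p = 0.00257) and COL5A1, which regulates fibril diameter, by 1.13 (SE 0.20, adjusted p = 0.00037). Of the elastic fibre and fibrillin genes, 8 of 12 were higher, with a median of 0.73. The microfibril genes MFAP2 at 1.73 (adjusted p = 1.58e-05) and FBN2 at 1.71 (adjusted p = 2.82e-05) led. Collagen crosslinking, modifying and folding genes rose in 10 of 19 tested and fell in none, with a median of 0.60, led by the collagen chaperone SERPINH1 at 1.11 (adjusted p = 0.00651) and the lysyl oxidase LOXL4 at 1.08 (adjusted p = 0.0458).

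The other matricellular genes were mixed. Of 13 tested, 3 were higher and 2 lower in DOX and MYO than in Hyper, with a median of 0.48. SPOCK3 was higher by 1.14 and THBS3 by 0.76, whereas SPOCK2 at -0.97 and SMOC1 at -0.57 were lower, all with adjusted p between 0.00948 and 0.0401. Among 24 integrins and other matrix receptors tested, 3 were higher and 1 lower, with a median of 0.23. With 15.8% of all genes higher and 16.9% lower, these counts do not set either list apart. The syndecans SDC2 at 0.56 and SDC3 at 0.55 rose, and ITGA8, an integrin subunit of mesenchymal cells, fell by 1.23 on the log2 scale (adjusted p = 0.0457). Lists were chosen with earlier results known, and their counts are a description.

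In the libraries labelled RemoLV, against those labelled Control, all 12 elastic fibre and fibrillin genes were higher, led by ELN (elastin) at 5.22 (SE 0.45, adjusted p = 1.65e-07) with 1802 ± 525.7 against 48.4 ± 20.3 CPM (SD, n = 3), and MFAP2 at 3.06. Fibrillar collagens were higher in 8 of 9 and other matricellular genes in 10 of 13, none lower, led by COL24A1 at 2.77, COL27A1 at 2.65, SPOCK3 at 6.26 and SPP1 at 2.93. Some of these were low or uneven. COL24A1 was at 2.62 ± 1.35 against 0.38 ± 0.21 CPM, SPP1 at 14.7 ± 13.4 against 1.91 ± 0.98 and SPOCK3 at 80.9 ± 44.6 against 1.08 ± 0.58. Of the collagen crosslinking, modifying and folding genes, 8 of 19 were higher, among them FKBP10 at 1.84 and PCOLCE at 1.28, and 1 was lower, P4HA1 at -0.94. Of the matrix receptors, 7 of 24 were higher and 7 lower, near the shares of all genes (23.1% and 24.0%). All these signs turn with the table names.

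Markers of other cell types were counted in the same contrast of the drug groups with Hyper, in which 15.8% of all genes were higher and 16.9% lower, so that counts such as 2 of 10 are at that share. Fibroblast markers were higher in 2 of 10 tested and lower in none (PI16 at 0.98 and PCOLCE at 0.71), activated fibroblast markers in 3 of 9 and 0, and macrophage markers in 5 of 10 and 1. Smooth muscle markers were higher in 3 and lower in 1 of 9, endothelial markers in 3 and 2 of 8, and tendon and fibrous tissue markers in 3 and 0 of 5. The tendon factor SCX was higher by 2.52 (adjusted p = 0.000465), at 2.46 ± 0.82 CPM (SD, n = 10) against 0.43 ± 0.17 (n = 3). Platelet, red cell and Schwann cell markers gave no call among 3, 4 and 7 tested, adipocyte markers were lower in 2 of 6, and endocardial and epicardial markers were lower in 1 of 5. Atrial and ventricular cardiomyocyte markers were higher in 2 of 7 and 1 of 9 and lower in 0 and 1. Skeletal muscle markers were lower in 1 of 2 (CKM), and immediate-early genes were higher in 2 of 14. The summed fibroblast markers were 815 to 1140 CPM in DOX and MYO and 691 to 1131 CPM in Hyper, and these ranges overlapped. The part of the share of fibroblasts in the levels of LOXL2 and the other genes was not tested.

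Genes with the most similar pattern over the 19 libraries were found by the mean absolute difference of centred log2 CPM, taken over all genes tested with a symbol. SPARC was closest to THBS2 (0.14), COL6A1 (0.15) and TGFBI (0.16), all matrix genes, and FN1 to COL5A2 (0.19), COL6A6 (0.21) and COL16A1 (0.24), all collagens. POSTN was also closest to COL5A2 (0.31), nearly tied with SLC4A2 (0.32) and EML1 (0.32). LOXL2 was closest to MCAM (0.25), RASA3 (0.27) and TMEM132A (0.27), and LOXL1 to KIFC1 (0.31), LOXL2 (0.32) and TMEM132A (0.33). LOX was closest to CYBRD1 (0.22), CYP2B22 (0.23) and CD9 (0.25). THBS1 was closest to JUNB (0.43), IFRD1 (0.51) and CSRNP1 (0.52), of which JUNB and CSRNP1 are early response genes, and CCN2 to LOXL1 (0.59), SCARF2 (0.59) and LOXL2 (0.60). THBS4 was closest to KCNN2 (0.28), and TNC to SLC41A2 (0.41). For no member did any of these genes recur among its closest within the 10 DOX and MYO libraries alone.

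Within the 10 DOX and MYO libraries, 45 pairs of the genes were compared by log2 CPM. Only POSTN and FN1 passed, with a Pearson r of 0.895 (permutation p = 0.00043, adjusted p = 0.0193) and a Spearman rho of 0.855 (permutation p = 0.00329, adjusted p = 0.148). Without DOX replicate 1 and MYO replicate 3, the libraries farthest from the median of POSTN, r was 0.747, and centred within DOX and within MYO it was 0.867. No pair passed without DOX replicate 1, without DOX replicate 5 or without MYO replicate 3.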

How the data were processed

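Total RNA was isolated from 19 pig myocardium samples, and poly(A) mRNA selected from it was sequenced with a directional kit. The authors aligned read pairs with STAR to Sscrofa11.1 and counted them per Ensembl gene on the reverse strand with HTSeq 0.11.1, and the deposited count files hold raw counts. A deposited table of the authors, with 14744 genes, holds log2-like expression values scaled for library size, used here only to match sample names and symbols. Its columns of the authors' own fold changes and adjusted p-values were not used. No other sample columns were present.

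Counts were analysed in R 4.3.3 with edgeR 4.0.16: TMM scaling, filterByExpr with the 5 groups (13552 of 25879 genes kept), the quasi-likelihood test in 1 model of the 5 groups, and Benjamini-Hochberg adjustment over all genes kept. Genes with an adjusted p up to 0.05 were called, and those that also reached a log2 fold change of 2 in size were counted separately. SE came from the fitted models. CPM used TMM-scaled totals. Library totals were 9527710 to 20370209 counts. No row lacked a gene name. Relations and likeness used log2(CPM + 0.5), with 100000 resamples. DESeq2 1.42.0, other scalings and filters, the replicate block, smaller models, each library left out and the table names were alternatives. DESeq2 gave THBS1 no adjusted p in any comparison. The edgeR procedure was also run on simulated data, and no outcome of that run is reported or relied on here.

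Promoter windows and exon lengths came from the RefSeq annotation and genome of Sscrofa11.1, and motif letters were searched on both strands. All 10 genes were matched there, CCN2 as CTGF. The 10 genes are named in every comparison. Of each list, the 2 largest positive and 2 largest negative log2 fold changes among called genes were eligible in DOX and MYO vs Hyper and in RemoLV vs Control, and the 3 most alike genes per member. The members and lists were chosen with earlier results of these data known.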

Additional observations from a re-analysis of the deposited data

Results flagged for a closer look

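DOX replicate 1 stood apart for CCN2 and THBS1. With the file labels, its CCN2 level of 1348 CPM exceeded the next DOX library by 0.832 of the whole range of the group, and its THBS1 level of 2162 CPM did so by 0.943, both above Dixon's 95% critical value for 5 samples. Of 20 sets of 1 gene in DOX or MYO tested this way, these were the 2 that passed, and chance alone gives about 1 in 20. The remaining DOX libraries were at 49.5 to 268 CPM for CCN2 and at 101 to 217 CPM for THBS1. The immediate-early genes were also highest in this library, at a summed 6802 CPM, and their part in these levels was not tested.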

How the results depend on the processing

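Of 70 results (10 genes in 7 comparisons), 29 were called with the file labels, and 16 of these kept their call and direction under every alternative but the table names (THBS1 had no adjusted p from DESeq2). LOXL2 and LOXL1 kept theirs against Hyper and against Control in both drug groups. The naming mattered most. With the table names, log2 fold changes of the opposite sign were, in DOX vs Control, -0.36 for POSTN, -0.91 for SPARC, 0.63 for TNC, -0.39 for FN1 and 3.07 for THBS1, and in MYO vs Control -0.66 for POSTN, -0.85 for SPARC, -0.91 for FN1 and 0.82 for THBS1. In RemoLV vs Control they were -1.36 for POSTN, -1.47 for SPARC, 0.91 for TNC, -1.16 for FN1, -1.20 for CCN2, 3.26 for THBS1, -0.70 for THBS4, -1.65 for LOX, -1.32 for LOXL1 and -0.72 for LOXL2. In Hyper vs Control they were -0.84 for POSTN, -1.44 for SPARC, -1.16 for CCN2, 0.65 for THBS1, -0.26 for THBS4, -1.20 for LOXL1 and -0.69 for LOXL2, and in RemoLV vs Hyper -0.52 for POSTN, -0.031 for SPARC, -0.040 for CCN2, 2.61 for THBS1, -0.44 for THBS4, -0.12 for LOXL1 and -0.030 for LOXL2. The number of genes called higher and lower then became 2 and 3 for DOX vs Control, 1 and 3 for MYO vs Control, 1 and 6 for RemoLV vs Control, 0 and 6 for Hyper vs Control and 0 and 0 in RemoLV vs Hyper.

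With plain library totals the sign changed for TNC (0.016) and THBS1 (0.30) in DOX vs Control and for THBS4 (0.31) in MYO vs Control, none of them called, and 6 genes were higher and 1 lower in MYO. There TNC (adjusted p = 0.122) and LOX (adjusted p = 0.582) lost their calls. The median of all genes then moved to 0.45 (DOX), 0.44 (MYO), 0.52 (RemoLV) and 0.17 (Hyper) against Control, and to 0.36 in RemoLV vs Hyper. Called genes were 5622 higher and 705 lower in DOX, 5499 and 753 in MYO, 6178 and 1038 in RemoLV vs Control and 4123 and 962 in RemoLV vs Hyper, in place of 2842 and 2862, 2804 and 2944, 3136 and 3257, and 2300 and 2518. Past both thresholds were 213 genes upwards in DOX and MYO vs Hyper, 459 upwards in DOX vs Control, 102 downwards in MYO vs Control and 166 downwards in RemoLV vs Control. Plain totals leave the unequal scaling factors (0.70 to 1.18) in the values. With only the compared groups in the model, 5 genes were higher in MYO vs Control, and 1 was lower in DOX vs Control and in DOX and MYO vs Hyper, THBS4 in both. Of all genes, 2445 were then higher in MYO vs Control, 2262 lower in DOX vs Control and 2346 lower in DOX and MYO vs Hyper. With this model 7 calls were gained and 7 lost over the 7 comparisons. The lost calls were FN1 and CCN2 in DOX vs Control, POSTN and LOXL2 in RemoLV vs Control, LOXL1 and LOXL2 in RemoLV vs Hyper and TNC in DOX and MYO vs Hyper (adjusted p from 0.0517 to 0.0816). DESeq2 called 4 genes higher in MYO vs Control, with CCN2 added (1.80, adjusted p = 0.0424), 6 higher in RemoLV vs Hyper, with TNC added (1.31, adjusted p = 0.0418), 1 lower in Hyper vs Control, TNC, 1 lower in DOX and MYO vs Hyper, THBS4, and 0 lower in RemoLV vs Control, where THBS1 had no adjusted p. Without the libraries labelled RemoLV in the model, 1 gene was lower in DOX and MYO vs Hyper, THBS4, POSTN was gained in DOX vs Control (adjusted p = 0.0133), and 3 calls were lost, FN1 in DOX vs Control (adjusted p = 0.0600), LOX in MYO vs Control (adjusted p = 0.055) and TNC in DOX and MYO vs Hyper (adjusted p = 0.0557). DESeq2's size factors in edgeR ended the call of FN1 in DOX vs Control, and no filter on low counts that of LOXL2 in RemoLV vs Hyper (adjusted p = 0.0594). A minimum of 10 counts in every library changed no call of the 10 genes. It left 15 genes in place of 117 past both thresholds upwards in DOX and MYO vs Hyper, 46 in place of 215 upwards in DOX vs Control, 56 in place of 168 downwards in MYO vs Control and 158 in place of 301 downwards in RemoLV vs Control. The cause of the other differences was not tested.

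Replicate numbers mark different pigs. Deviations of same-numbered libraries from their group means had correlations of -0.246 to 0.242 over 32 pairs (median 0.007), against -0.218 to 0.278 over 110 other pairs (median 0.001), so the numbers were not taken to pair the libraries. With the replicate block, 0 genes were lower in MYO vs Control and 3 higher in RemoLV vs Hyper, 7 calls were lost and 1 was gained (CCN2 in MYO vs Control, 2.48, adjusted p = 0.0359). Of all genes, 2455 were then lower in MYO vs Control and 2165 higher in RemoLV vs Hyper.

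Leaving out each library in turn gave 3 to 5 genes higher and 0 to 1 lower in DOX vs Control, 0 to 2 lower in MYO vs Control, 3 to 6 higher in RemoLV vs Control and in RemoLV vs Hyper, 0 to 2 lower in Hyper vs Control and 0 to 1 lower in DOX and MYO vs Hyper. The counts over all genes moved too. They ran from 1800 to 3143 higher and 1987 to 3021 lower in DOX vs Control, and from 2056 to 3146 lower in MYO vs Control. From 2323 to 3692 were higher in RemoLV vs Control and 1858 to 2239 in RemoLV vs Hyper. From 0 to 1253 were lower in Hyper vs Control and 1427 to 2404 in DOX and MYO vs Hyper. Signs changed for values that were not called with the file labels. These ran from -1.96 to 0.15 for THBS1 in DOX vs Control, from -0.32 to 0.03 for THBS4 in MYO vs Control, and from -0.60 to 0.98 for CCN2 in DOX vs MYO. In Hyper vs Control they ran from -0.059 to 0.86 for POSTN, -0.091 to 0.20 for SPARC, -0.38 to 0.37 for CCN2, -0.64 to 0.57 for LOXL1 and -0.20 to 0.24 for LOXL2. They ran from -0.21 to 1.41 for POSTN and -0.18 to 0.66 for THBS4 in RemoLV vs Hyper, and from -0.0076 to 0.91 for POSTN in DOX and MYO vs Hyper. The lowest and highest log2 ratio of LOXL2 to LOX, DOX and MYO minus Hyper, were 1.54 and 2.19. Of pairs related within DOX and MYO, 1 passed by Pearson r, 0 by Spearman rho, 4 after centring within the groups and 0 to 4 with 1 library left out. Of the 30 pairs of a member and an alike gene, 0 were found again in the 10 DOX and MYO libraries alone. With 3 libraries in most groups, differences near the size of the SE given could not be detected.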
